A study of Mus musculus with 2 samples.

Results

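Mir185 is a single microRNA gene, 1 of the 2202 microRNA genes counted in these libraries. It was chosen by its own-strand counts, because its level differed widely between both libraries, and was found in the tables as the row whose GENCODE M21 symbol is Mir185 (ENSMUSG00000065464.2). The choice named no size of difference, so its difference between the libraries is described here without a test. The material was left cerebral cortex from B6CASTF1/J males, hybrids of the B6 and CAST strains, aged 36 days, with no treatment or altered gene named in the labels, and its microRNA was sequenced. The 2 libraries form 1 group: replicate 1 is the mouse numbered 3 and replicate 2 the mouse numbered 4. Both carry the same donor identifier in the labels, and nothing else there says how far the animals were handled apart.

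A microRNA gene is transcribed as a hairpin that Drosha and its partner Dgcr8 cut out in the nucleus and Dicer trims to a short duplex, of which either arm can guide the silencing of messenger RNAs through its seed. Mir185 lies in the mouse region that matches human 22q11.2, whose loss of a copy raises the risk of schizophrenia, and Dgcr8 lies in the same region. In mouse models of that deletion, miR-185 is among the microRNAs with lowered levels in the brain. It has been studied there as a repressor of Emc10, which limits the growth of dendrites and spines, and of the calcium pump gene Atp2a2. In liver cells it is known as a repressor of genes of cholesterol synthesis and uptake.

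Mir185 stands on the minus strand of chromosome 16, from 18327401 to 18327465 (mm10), within Tango2 (18300825 to 18348103, same strand). Tango2, a gene named for transport and Golgi organisation, has 19 transcripts in GENCODE M21, and 10 of them span Mir185. None of those 10 has an exon there: Mir185 lies in intron 1 of 8 of them and in intron 2 of the other two. In the transcript Tango2-201, which has 9 exons, that intron runs for 19444 bases from 18324451 to 18343894. Mir185 begins 16429 bases after the upstream exon and ends 2950 bases before the downstream one.

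The hairpin and its miR-185-3p arm are shown because all counts below are reads on this hairpin, with both arms, miR-185-5p and miR-185-3p, pooled. The sequences are RefSeq's (GRCm38.p6, minus strand, 5′ to 3′). Capitals mark the miR-185-3p arm in the hairpin, which lies at chr16:18327401-18327465, and the seed (bases 2 to 8) in the arm.
Mir185 hairpin: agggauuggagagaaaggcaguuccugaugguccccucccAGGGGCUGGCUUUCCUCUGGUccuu
miR-185-3p: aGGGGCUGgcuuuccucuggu

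The hairpin is short, at 65 bases, and rich in G and C, which make up 38 of its bases (58.5%). Of the 2202 microRNA genes, 519 have a higher GC content. RNAfold placed 26 base pairs in it, at a free energy of -37.2 kcal/mol. No run of 22 bases in it recurs, on either strand, at a second microRNA locus. The RefSeq table lists miR-185-3p but no miR-185-5p for Mir185, so genes with the seed of miR-185-5p were not looked for. Of 1738 mature arms in that table, 1 other has the seed of miR-185-3p, GGGGCUG, the only Mir185 seed compared here. This is miR-7048-5p, shown to set it beside miR-185-3p.
miR-7048-5p: cGGGGCUGagaggugaggaagc
Mir7048 on chromosome 7 had 1 count in replicate 1 and 2 counts in replicate 2, at or below the 3 counts that a count of 0 allows.

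Mir185 had 921 counts in replicate 1 and 9815 counts in replicate 2. Levels are given in CPM, own-strand counts per 1000000 own-strand counts at microRNA genes, and intervals are exact Clopper-Pearson 95% intervals that cover counting error only. The level was 215.5 CPM (202 to 230) in replicate 1 and 2447 CPM (2399 to 2496) in replicate 2. These intervals lie far apart, and replicate 2 is the higher library. The mean was 1331 ± 1578 CPM (SD, n = 2), so the spread between the libraries exceeded the mean itself. As a share of own-strand counts, Mir185 took 0.0216% (0.0202 to 0.0230) in replicate 1 and 0.245% (0.240 to 0.250) in replicate 2. In tissue RNA, more cells that hold a microRNA and more of it per cell cannot be told apart.

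The log2 ratio of replicate 2 over replicate 1, on TMM library sizes (edgeR), was 3.53 (3.43 to 3.63), an 11.5-fold difference. With 1 library a side, no replicate check of this difference can be had. Opposite-strand counts at Mir185 were 0 in both libraries, and the unstranded counts were again 921 and 9815. The choice of count column therefore leaves its counts as they are. By level, Mir185 ranked 169th in replicate 1 and 65th in replicate 2 of all 2202 genes, and 85th by mean CPM. It was among the 300 genes that reached 10 CPM in each library.

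The genes next to it in rank of mean CPM are given for scale. Replicate 2 carries most of the mean of Mir185, so its order against them in each library follows from the matching and is no finding. From here on, paired values are those of replicate 1 and replicate 2, in that order. Those just above were Mir140 at 2353 and 658 CPM, Mir130a at 1233 and 1591 CPM, and Mir154 at 1615 and 1060 CPM. Those just below were Mir484 at 1539 and 1110 CPM, Mir874 at 1887 and 713 CPM, and Mir150, a lymphocyte microRNA, at 1334 and 1091 CPM. Among these 6 genes Mir130a alone was higher in replicate 2. Over the 50 genes nearest in rank of mean CPM (25 on each side), log2 ratios ran from -2.29 to 0.93 with a median of -0.20. Of these 50 genes, 0 were 2-fold or more higher in replicate 2 and 8 were 2-fold or more lower. Of the 309 genes with 100 or more counts over both libraries, 5.18% were higher and 12.0% lower by that limit. Those 309 genes include far less abundant ones. Of the 98 genes other than Mir185 with a mean of 1000 CPM or more, 1 was 2-fold higher and 10 were 2-fold lower. The absence of higher genes among the 50 is therefore no finding.

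**Figure D1:**
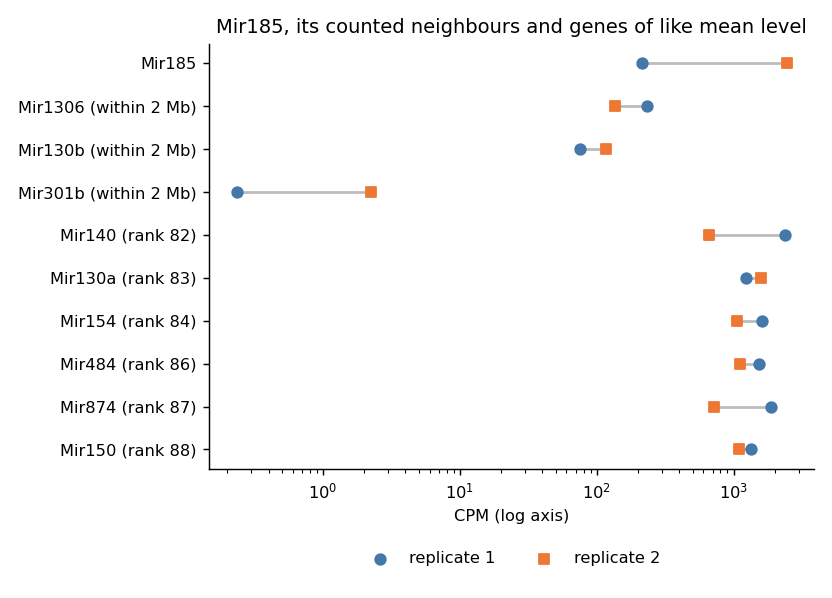
CPM (log axis) in replicate 1 (circles) and replicate 2 (squares) of Mir185, of the counted microRNA genes within 2 Mb of it, and of the 3 genes above and 3 below it in rank of mean CPM. The points of Mir185, chosen for this difference, stand at 215.5 and 2447 CPM, wider apart than those of the other genes shown. Mir1306 stands at 233 and 135 CPM.

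Against all genes, Mir185 had the third highest log2 ratio of those 309 genes. Mir200c, at 3.73, stood just above it and Mir182, at 3.12, just below. Of these 309 genes, 16 (5.18%) were 2-fold or more higher in replicate 2 and 37 (12.0%) were 2-fold or more lower, with a median log2 ratio of -0.06. Nothing is read from the place of Mir185 in that order, since the difference chose it. Among the 98 other genes with a mean of 1000 CPM or more, a mean that Mir185 reached through replicate 2 alone, log2 ratios ran from -2.47 to 1.02. The highest, named after its values were seen, was that of Mir361, at 3252 and 6508 CPM (log2 ratio 1.02, 0.99 to 1.05). In CPM rather than in fold, 16 genes were higher in replicate 2 by a wider margin than Mir185.

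**Figure D2:**
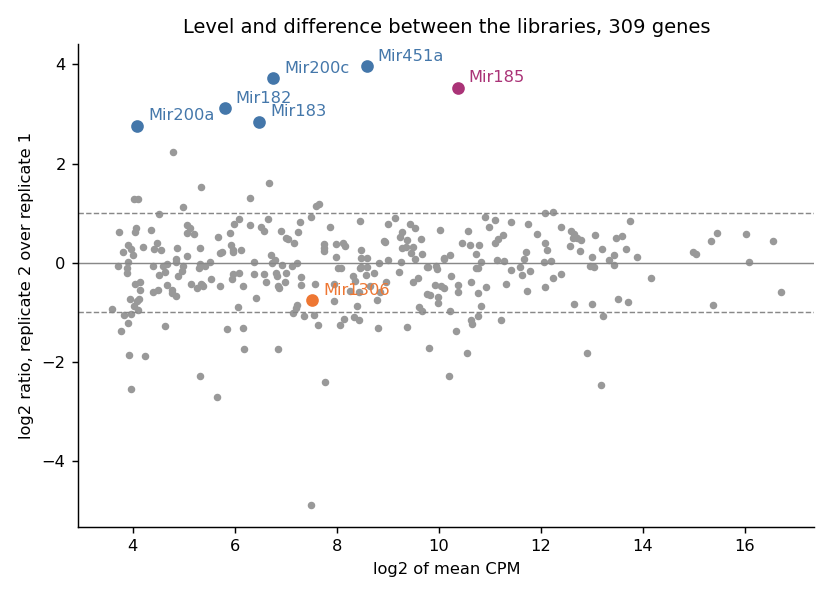
log2 ratio of replicate 2 over replicate 1 (vertical axis) against the log2 of mean CPM (horizontal axis) of 309 genes with 100 or more counts, 1 point a gene, with dashed lines at 2-fold. Mir185, at 3.53, lies to the right of the 5 genes with the most similar log2 ratio, whose means are 17.1 to 386 CPM against 1331 CPM, and Mir1306 lies below 0 at -0.76.

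The nearest counted neighbour of Mir185 differed between the libraries in the opposite direction. Within 2 Mb on either side lie 8 others, of which 3 had a count. Mir1306, 43.1 kb away on the same strand in an exon of Dgcr8 (chromosome 16, 18284239 to 18284317), had 995 and 542 counts, or 233 and 135 CPM. Its log2 ratio was -0.76 (-0.92 to -0.61), short of 2-fold and lower in replicate 2 where Mir185 was higher. Mir185 thus had 0.926 counts for each count of Mir1306 in replicate 1 and 18.1 in replicate 2. Since Mir185 was chosen for its difference, the size of this change is no finding about Mir1306. The arms of Mir1306 are shown because it is the nearest counted microRNA gene, and no seed is shared with miR-185-3p.
miR-1306-5p: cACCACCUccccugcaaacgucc
miR-1306-3p: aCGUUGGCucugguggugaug

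Further off, Mir130b and Mir301b lie about 1203 kb away in an intron of 2610318N02Rik. Mir130b stood at 75.6 and 116 CPM (log2 ratio 0.64, 0.43 to 0.85). Mir301b had 1 and 9 counts, a log2 ratio of 3.28 whose interval, 0.43 to 8.74, is too wide to place it beside Mir185. The other 5 genes, Mir6366, Gm24572, Gm26219, Gm23612 and Gm27883, had 0 counts in both libraries, where the floor of 3 counts stands at 0.702 and 0.748 CPM.

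Over the whole of chromosome 16, 12 genes beside Mir185 had 100 or more counts. Their log2 ratios ran from -0.85 to 0.64 with a median of -0.08. Of these 12 genes 0 were past 2-fold in either direction, against 5.18% of all 309 genes higher and 12.0% lower. So few genes leave nothing to read from that count. Mir99a, the most abundant, stood at 14639 and 8685 CPM. Mir185 made up 1.15% of the counts on the chromosome in replicate 1 and 16.6% in replicate 2, while the other genes there summed to 18491 and 12258 CPM. Among genes in an intron of a protein-coding gene on their own strand, the kind of place that Mir185 has, 113 others had 100 or more counts. Of these, 6 (5.31%) were 2-fold higher and 13 (11.5%) 2-fold lower, near the 5.18% and 12.0% of all genes, with a median of -0.00. Of the 63 other genes with a hairpin GC content at or above that of Mir185 and as many counts, 0 were 2-fold higher and 6 (9.52%) 2-fold lower.

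**Figure D3:**
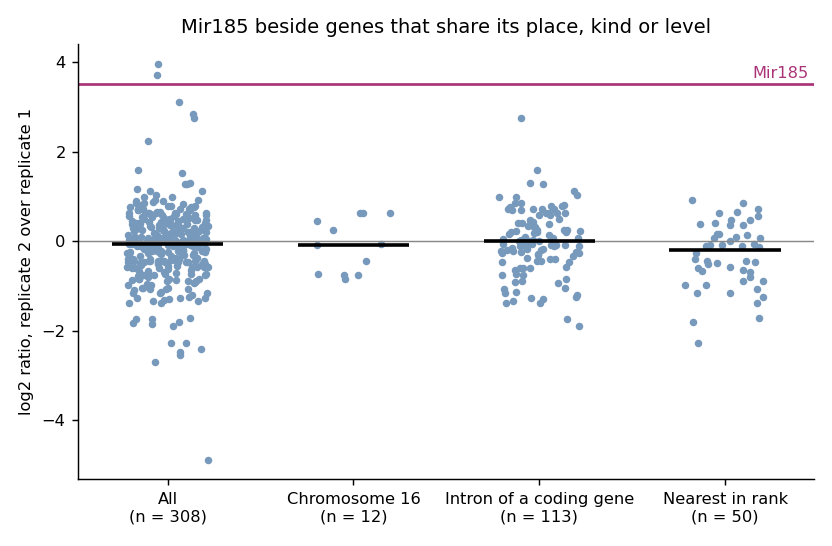
log2 ratio of replicate 2 over replicate 1 (vertical axis) of genes with 100 or more counts, 1 point a gene and a bar at the median, for all 308 genes but Mir185, for 12 on chromosome 16, for 113 in an intron of a protein-coding gene and for the 50 nearest in rank. The line marks Mir185 at 3.53, and each of the last 3 groups lies below it throughout. Since Mir185 was chosen for its difference, its place above them is no finding.

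Beside Mir185, 3 microRNAs have been studied in mouse models of the 22q11.2 deletion: Mir25, a partner of miR-185 in repressing Atp2a2, Mir338, a repressor of the dopamine receptor gene Drd2 in the thalamus, and Mir1306. Mir25 stood at 44.0 and 41.1 CPM (-0.08, -0.39 to 0.23), with an interval that spans 0. Mir338, best known from oligodendrocytes, stood at 2136 and 1382 CPM (-0.61, -0.65 to -0.56). Of the 3 genes 0 were past 2-fold, against 5.18% of all 309 genes higher and 12.0% lower, a count too small to read. Their median log2 ratio was -0.61, against -0.06 for all 309 genes. Mir185 stood below Mir338 in replicate 1 and above it in replicate 2. Since Mir185 was chosen for its difference, this crossing is no finding.

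The list of microRNAs known to repress genes of cholesterol synthesis, uptake or export held 11 genes beside Mir185, and all 11 had counts. Of the 8 with 100 or more counts, 1 was 2-fold higher in replicate 2 and 2 were 2-fold lower, against 5.18% and 12.0% of all 309 genes, with a median log2 ratio of -0.22 against -0.06. The higher one was Mir144, at 9.83 and 45.6 CPM (2.24, 1.75 to 2.76). The lower ones were Mir128-1, at 12978 and 6096 CPM, and Mir27b, at 2220 and 981 CPM. Mir342, which acts with miR-185 on the sterol regulators, was nearly level at 3782 and 3293 CPM (-0.18, -0.21 to -0.15).

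Mir33, in an intron of the sterol regulator gene Srebf2, had 71 and 82 counts, with an interval that spans 0 (0.32, -0.16 to 0.80). Mir122, abundant in liver, stood at 47.5 and 79.8 CPM, Mir106b at 419 and 345 CPM and Mir148a at 33.5 and 21.4 CPM. Low counts limit the other three. Mir758 had 33 and 21 counts. Mir223, a microRNA of myeloid cells, had 70 and 2 counts, a log2 ratio of -5.02 (-8.09 to -3.11). Mir96 had 0 and 10 counts. The list therefore held members in both directions. Of its 3 genes with means of 1000 CPM or more, Mir128-1 and Mir27b were 2-fold lower in replicate 2 and Mir342 was nearly level. Among the 98 genes other than Mir185 with such a mean, 10.2% were 2-fold lower, and 3 genes are too few to read.

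The pattern of Mir185 was closest to that of 5 genes, by the smallest difference in log2 ratio among the 309 genes over the 2 libraries. These were Mir200c and Mir200a, known from epithelia, Mir182 and Mir183, known from sensory organs, and Mir451a, known from red cells. Mir200c differed from Mir185 by 0.20 in log2 ratio, at 15.4 and 201 CPM. Mir182 differed by 0.41, at 11.7 and 100 CPM, and Mir451a by 0.44, at 47.0 and 726 CPM. Mir183 differed by 0.68, at 22.2 and 157 CPM, and Mir200a by 0.77, at 4.45 and 29.7 CPM. In replicate 1 Mir185 was already 215.5 CPM, above each of the 5 genes in that library. The interval of Mir185 (3.43 to 3.63) overlaps those of Mir200c (3.36 to 4.11), Mir182 (2.69 to 3.57) and Mir200a (2.05 to 3.54), while that of Mir451a (3.76 to 4.18) lies above it and that of Mir183 (2.53 to 3.17) below it. These 5 genes were picked for log2 ratios near that of Mir185. The intervals cover counting error only and are wider at low counts, so which of them overlap is no finding. Over 2 libraries the likeness to Mir185 rests on a single difference for each gene.

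The arms of the nearest 3 of these genes are shown to set their seeds beside GGGGCUG. Over the 12 arms on record in RefSeq's table for Mir185, Mir1306 and the 5 like genes, no pair has the same seed. Among these arms miR-185-5p is missing.
miR-200c-3p: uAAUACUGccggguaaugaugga
miR-200c-5p: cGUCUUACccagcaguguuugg
miR-182-5p: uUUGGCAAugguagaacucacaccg
miR-182-3p: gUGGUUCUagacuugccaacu
miR-451a: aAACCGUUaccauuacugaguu

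Markers of other cell types moved with Mir185 in part, and their counts past 2-fold stand beside 5.18% of all 309 genes higher and 12.0% lower. The red-cell list (Mir451a, Mir144, Mir486, Mir3107) summed to 86.8 and 795 CPM, with 4 of 4 genes counted and 2 of 3 with enough counts 2-fold higher. Mir486, another red-cell microRNA, stood at 26.7 and 22.9 CPM, and Mir3107, which overlaps it on the other strand, had 14 and 3 counts. The epithelial list summed to 138 and 386 CPM, with 2 of 4 genes 2-fold higher and Mir141 at 0 and 48 counts. Mir200b, of the same list, stood at 69.7 and 54.6 CPM. The sensory list summed to 33.9 and 260 CPM, with 2 of 2 genes 2-fold higher and Mir96 at 0 in replicate 1. Of the genes 2-fold higher in these lists, all but Mir144 are among the 5 chosen above for log2 ratios near that of Mir185. The lists were also chosen with earlier results known, so their counts beside 5.18% are no separate finding. The part of these cell types in the Mir185 difference was not tested.

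Lists of cells known to lie in the cortex differed less between the libraries. The leukocyte and microglia list summed to 2230 and 2066 CPM, and 0 of its 4 genes with 100 or more counts were past 2-fold. Mir223, of the same list but below that minimum, had 70 and 2 counts, lower in replicate 2. The endothelial list summed to 11394 and 10799 CPM, all from Mir126a with Mir126b at 0. The mural list summed to 5178 and 7691 CPM, with Mir145b at 0. Its members were split, with Mir143 at 4892 and 7484 CPM and Mir145a at 286 and 208 CPM (-0.44, -0.57 to -0.31). The oligodendrocyte list went the other way from Mir185, at 5098 and 3543 CPM. So did the neuronal list, at 93905 and 62124 CPM, with 12 of 15 genes at 10 CPM or above in each library, 3 of 12 with enough counts being 2-fold lower against 12.0% of all genes. Mir132, a neuronal microRNA induced by activity, carried most of that difference, at 54937 and 30022 CPM. Mir138-1, Mir138-2 and Mir383 of the same list had log2 ratios above 0, at 0.50, 0.22 and 0.33. Of the neuronal genes, Mir124a-2 was at 0 counts, and Mir124a-1 and Mir124a-3 had 20 or fewer counts a library. These miR-124 genes, the defining neuronal ones, each hold a run of 22 bases that recurs at a second locus. So do the miR-128, miR-129, miR-138 and miR-218 genes of the list, among them Mir128-1 with 55463 and 24445 counts. Multi-mapped reads are in no gene's count, and their part in the low miR-124 counts was not tested.

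**Figure D4:**
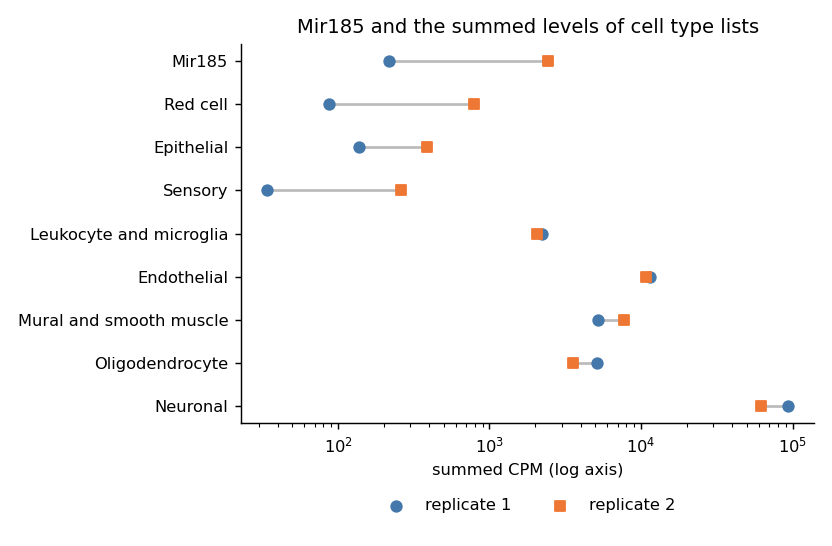
CPM of Mir185 and summed CPM (log axis) of 8 lists of cell type markers in replicate 1 (circles) and replicate 2 (squares). The red-cell, epithelial and sensory lists are higher in replicate 2, as Mir185 is, at 795 against 86.8 CPM for red cells. The mural list is also higher, at 7691 against 5178 CPM. The leukocyte, endothelial, oligodendrocyte and neuronal lists are lower, at 62124 against 93905 CPM for the neuronal list.

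Depth did not differ much between the libraries. Own-strand counts at microRNA genes came to 4273791 and 4010274, or 36.0% and 34.8% of all reads. Reads that map to several places made up 42.8% and 39.9% of reads and are in no gene's count. Mir185 had the higher count in the library with fewer assigned reads.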

How the data were processed

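The deposited tables give raw counts of reads per microRNA gene, 1 table for each of 2 libraries. The text files that the authors deposited beside them name mm10 and GENCODE M21; of the aligner, the counter, trimming and molecular identifiers, the sources used here give nothing. Without a header line, columns were read from their layout as unstranded, own-strand and opposite-strand counts. All 2202 identifiers matched GENCODE M21. The 4 entries that name no gene (64.0% and 65.2% of reads) stayed out of totals. CPM, log2 ratios on TMM sizes (edgeR 4.0.16, R 4.3.3) and exact intervals were computed with Python 3.11.15 and SciPy 1.17.1, and folds with RNAfold 2.7.2. The log2 ratio was tested on simulated libraries. PCR reads without molecular identifiers are not independent molecules. No p-value was computed: 1 group leaves no contrast, and the difference chose the gene. Genes named by rule are Mir185, counted genes within 2 Mb, genes with the miR-185-3p seed, 2 lists, 3 rank neighbours on each side and the 5 nearest log2 ratios. Members of the cell type lists, genes within 2 Mb without counts, Mir361, Mir99a and Mir3065 were named in addition. Members, lists and rules were chosen with earlier results of these data known. Alternatives were DESeq2 1.42.0 size factors, plain totals, all reads, totals without the most abundant gene, unstranded counts, a pseudocount of 1 CPM, other minimum counts and each library alone.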

Additional observations from a re-analysis of the deposited data

Results flagged for a closer look

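Opposite-strand counts, which no comparison uses, were 0 at Mir185 in both libraries. Among the genes of its neighbourhood and lists, they exceeded the floor of 3 counts at 5 genes. Mir338 had 5 in replicate 2 and 1 in replicate 1, and Mir3065, annotated there on the other strand, has the same 5 and 1 counts of its own. Mir129-2 had 5 in replicate 2. Mir126b had 48695 and 43307 in replicates 1 and 2, where Mir126a lies on the other strand. Mir3107 had 114 and 92, the own-strand counts of Mir486, and Mir486 had 14 in replicate 1.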

How the results depend on the processing

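The log2 ratio of Mir185, 3.53 on TMM sizes, ran from 3.43 to 3.52 over the other scalings, unstranded counts and a pseudocount. All 40 recomputed log2 ratios of 20 other named genes, on plain totals and on DESeq2 size factors, lay within their counting intervals. Each of these scalings shifts all genes by the same amount, so the 40 are not separate checks. All reads and totals without the most abundant gene were not applied to these genes. The mean CPM and the rank rest on single libraries: leaving out each replicate gave 215.5 to 2447 CPM and ranks from 65 to 169. With a minimum of 10 counts, 52 of 516 genes were 2-fold higher and 80 lower, and with 1000 counts 5 and 23 of 192, against 16 and 37 of 309. Unstranded counts gave summed means of 2274 CPM for the leukocyte, 0.39 CPM for the endothelial and 0.13 CPM for the oligodendrocyte list, and 29.95 CPM in place of 441 CPM for the red-cell list, where Mir451a then has 0 counts; reads where microRNA genes overlap on both strands are ambiguous there. No paired analysis was possible because both libraries belong to 1 group. Depth limits Mir301b, Mir96, Mir758 and Mir7048, and does not limit Mir185.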
